A study of Mus musculus with 7 samples.

Results

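The Ifitm genes encode the interferon-induced transmembrane proteins, and 7 of them were listed by symbol: Ifitm1, Ifitm2, Ifitm3, Ifitm5, Ifitm6, Ifitm7 and Ifitm10. The family was chosen by measured values, because Ifitm3 is much lower in Nanog knockout (KO) induced pluripotent stem cells (iPSC) than in wild-type (WT) pluripotent cells, so the difference between those groups is given for the members as a description, with no test. A member was measured where the array held a probe set annotated with its symbol alone, which was the case for 6 of the 7, among 22180 genes measured that way. Each of the 6 had 1 probe set. Ifitm7 was only on 2 probe sets annotated to both Ifitm7 and Bmerb1, and it is given apart.

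Transcripts were measured on 7 single-colour Affymetrix arrays of mouse cells of strain 129. The groups were Nanog KO iPSC (2 arrays), WT embryonic stem cells (ESC, 1 array), WT iPSC (2 arrays), Nanog KO embryonic fibroblasts (MEF, 1 array) and WT MEF (1 array). iPSC are somatic cells returned to an ESC-like state, and the homeobox gene Nanog encodes a DNA-binding regulator of pluripotency, so the series asks how pluripotent cells without Nanog differ from WT ones. The labels call the iPSC replicates biological without saying whether they are separate lines. Media for ESC, for 2i/LIF culture and for MEF are listed, but no sample is tied to one of them, so medium and group cannot be told apart. Neither the knockout allele nor the way the iPSC were made is described in the sources used here.

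IFITM proteins are small proteins of the plasma and endosomal membranes that hinder the fusion of enveloped viruses with the cell. Interferons raise Ifitm1, Ifitm2 and Ifitm3 through factors that bind interferon response elements and STAT sites near their start. In the mouse, Ifitm3 is also known as fragilis and is made, without added interferon, by pluripotent cells and early germ cells. Ifitm5, also called Bril, is known from bone-forming osteoblasts, and the roles of Ifitm6, Ifitm7 and Ifitm10 are less well studied.

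Because Ifitm3, Ifitm2 and Ifitm1 lie side by side and are the interferon-responsive members, the sequence around their starts is shown in windows of 300 bases, most of it before the start (RefSeq, mouse assembly GRCm38.p6). All 3 windows are on chromosome 7: Ifitm3 at chr7:141010695-141010994 on the minus strand, Ifitm2 at chr7:140955912-140956211 on the minus strand and Ifitm1 at chr7:140967826-140968125 on the plus strand. Capitals mark matches, on either strand, to the core of the interferon response element (GAAA, any 2 bases, GAAA) or to a STAT site (TTCNNNGAA).
Ifitm3: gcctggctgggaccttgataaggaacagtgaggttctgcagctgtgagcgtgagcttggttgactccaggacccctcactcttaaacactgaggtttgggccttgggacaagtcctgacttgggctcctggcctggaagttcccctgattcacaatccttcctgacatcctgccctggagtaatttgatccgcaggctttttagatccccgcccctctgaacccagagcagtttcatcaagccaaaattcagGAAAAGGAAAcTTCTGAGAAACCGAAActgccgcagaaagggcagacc
Ifitm2: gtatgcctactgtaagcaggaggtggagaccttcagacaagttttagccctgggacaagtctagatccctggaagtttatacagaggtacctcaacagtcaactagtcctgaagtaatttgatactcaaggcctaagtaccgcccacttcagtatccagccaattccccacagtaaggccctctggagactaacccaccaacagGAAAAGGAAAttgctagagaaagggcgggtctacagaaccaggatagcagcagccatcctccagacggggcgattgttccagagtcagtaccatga
Ifitm1: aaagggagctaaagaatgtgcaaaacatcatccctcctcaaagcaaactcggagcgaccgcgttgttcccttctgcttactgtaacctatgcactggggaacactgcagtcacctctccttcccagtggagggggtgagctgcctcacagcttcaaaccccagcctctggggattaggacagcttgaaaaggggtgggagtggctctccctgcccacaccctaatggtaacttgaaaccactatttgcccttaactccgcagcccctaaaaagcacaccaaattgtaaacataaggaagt

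The Ifitm3 window held 3 matches just after its start. GAAAAGGAAA began at base 3, TTCTGAGAA at base 14 and GAAACCGAAA at base 20, and the STAT-type match overlaps the one at base 20. The Ifitm2 window held GAAAAGGAAA, the same 10 letters as in Ifitm3, beginning 46 bases before the start. The Ifitm1 window held no match to either motif. Of the other members, Ifitm6 had the STAT-type match TTCCTTGAA 10 bases before its start, and the windows of Ifitm5, Ifitm7 and Ifitm10 had none. Over 32851 windows of this length, 3.44% held the interferon-type core and 8.30% the STAT-type letters. Among the 40 interferon-stimulated genes of the list used below that have a window, 19 held the interferon-type core and 11 the STAT-type letters. Counted by gene in the same way, 3.88% and 9.13% of 16918 measured genes did. A match describes these letters and does not show that a factor binds there.

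Values below are log2 intensities of a probe set, and the background on an array is the level that 95% of 1394 odorant and pheromone receptor genes stay under, between 6.30 and 6.50. Probe sets differ in brightness for reasons other than RNA amount, so levels are compared between arrays and not between genes. Between 61.0% and 63.7% of genes lay above background on an array. Nanog itself read 7.50 and 7.44 in KO iPSC, against 12.73 in WT ESC and 12.84 and 12.76 in WT iPSC, and it read 6.42 in KO MEF and 6.53 in WT MEF. All 10 pluripotency markers (Pou5f1, Sox2, Zfp42 and others) were above background on the KO iPSC and the WT pluripotent arrays. In KO MEF 3 were, and in WT MEF 2. Their median was lower in KO iPSC, at 10.90 and 10.93, against 11.68 to 12.02 on the WT pluripotent arrays. Sox2, Utf1, Tdgf1, Esrrb and Fgf4 were lower on both KO iPSC arrays than on every WT pluripotent array. Nr0b1 was higher on both, and the other markers overlapped. Fgf4 read 9.64 and 9.82 in KO iPSC, against 11.75 in WT ESC and 11.96 and 12.04 in WT iPSC. The 15 measured fibroblast markers had medians of 12.19 in KO MEF and 11.28 in WT MEF. The fibroblast proteoglycan gene Lum read 10.60 in KO MEF, against 5.09 in WT MEF, which is below background, and Dcn read 12.19 in KO MEF, against 7.99 in WT MEF. Of 9 measured haematopoietic markers, between 6 and 8 were above background on an array, and the leukocyte gene Ptprc was below it on all 7.

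Ifitm3 was bright on every array except those of KO iPSC. It read 8.16 and 8.62 in KO iPSC, against 12.49 in WT ESC and 11.94 and 12.27 in WT iPSC. Both KO iPSC arrays were below all 3 WT arrays, and the gap between the groups was 3.33. The mean was 8.39 ± 0.32 (SD, n = 2) in KO iPSC and 12.23 ± 0.27 (SD, n = 3) in WT pluripotent cells, a difference of -3.85 or 14.4-fold lower. Only 12 of the 22180 genes had a lower difference. Set against WT iPSC alone the difference was -3.72, or 13.2-fold lower, and in that comparison 16.5% of all genes passed limma's threshold, 6.93% higher and 9.55% lower in KO iPSC. In KO iPSC, Ifitm3 still lay above background on both arrays. From high to low, Ifitm3 ran KO MEF (12.70), WT ESC (12.49), WT MEF (12.29), WT iPSC (mean 12.11) and KO iPSC (mean 8.39). Each step among the first 4 of these was smaller than the gap of 0.33 between the 2 WT iPSC arrays.

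Ifitm2, another interferon-induced antiviral member, was lower in KO iPSC as well, at a smaller size. It read 6.92 and 6.93 in KO iPSC, against 8.52 in WT ESC and 8.15 and 8.59 in WT iPSC. The groups did not overlap, with a gap of 1.22. The mean was 6.93 ± 0.01 (SD, n = 2) in KO iPSC and 8.42 ± 0.23 (SD, n = 3) in WT pluripotent cells, a difference of -1.49 or 2.82-fold lower.

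Ifitm1 was dim. It read 6.02 and 6.06 in KO iPSC, both below background, against 7.34 in WT ESC and 6.55 and 6.82 in WT iPSC, which were above it. The fitted difference was -0.86, and since the KO iPSC arrays give only a bound, Ifitm1 was at least 1.35-fold lower in KO iPSC. The value leans on WT ESC, the brightest of the WT arrays: without it the difference was -0.65, and without WT iPSC replicate 1 it was -1.04.

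The other members showed small differences. Ifitm5 read 6.96 and 6.77 in KO iPSC, against 7.14 in WT ESC and 7.22 and 7.54 in WT iPSC, a difference of -0.44 with groups that did not overlap. Of 5 measured osteoblast markers, 1 was above background on each of the 7 arrays. Ifitm6 was below background on every array, at 5.54 to 5.62 in KO iPSC and 5.72 to 6.002 in WT pluripotent cells. Ifitm10 read 6.26 and 6.48 in KO iPSC, against 6.21 in WT ESC and 6.42 and 6.48 in WT iPSC, and its difference was -0.00. Both KO iPSC arrays were below all 3 WT pluripotent arrays in 5 of the 6 members (23.2% of all genes show this), and below all 5 other arrays in 3 of the 6 (10.6% of all genes), Ifitm1, Ifitm2 and Ifitm3. These counts include the difference that chose the family and are given as a description. Ifitm1 was below background in KO iPSC and in both MEF groups, so its order among those arrays is not read.

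The 2 probe sets shared by Ifitm7 and Bmerb1, which cannot be assigned to either gene, read 6.97 and 6.86 in KO iPSC, against 8.23 in WT ESC and 9.68 and 9.35 in WT iPSC on the first of them. On the other they read 7.87 and 7.27 in KO iPSC, against 7.61 in WT ESC and 8.25 and 8.53 in WT iPSC. Ifitm1, Ifitm2 and Ifitm3 are close paralogs, and how far each probe set detects the RNA of the others was not tested.

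**Figure D1:**
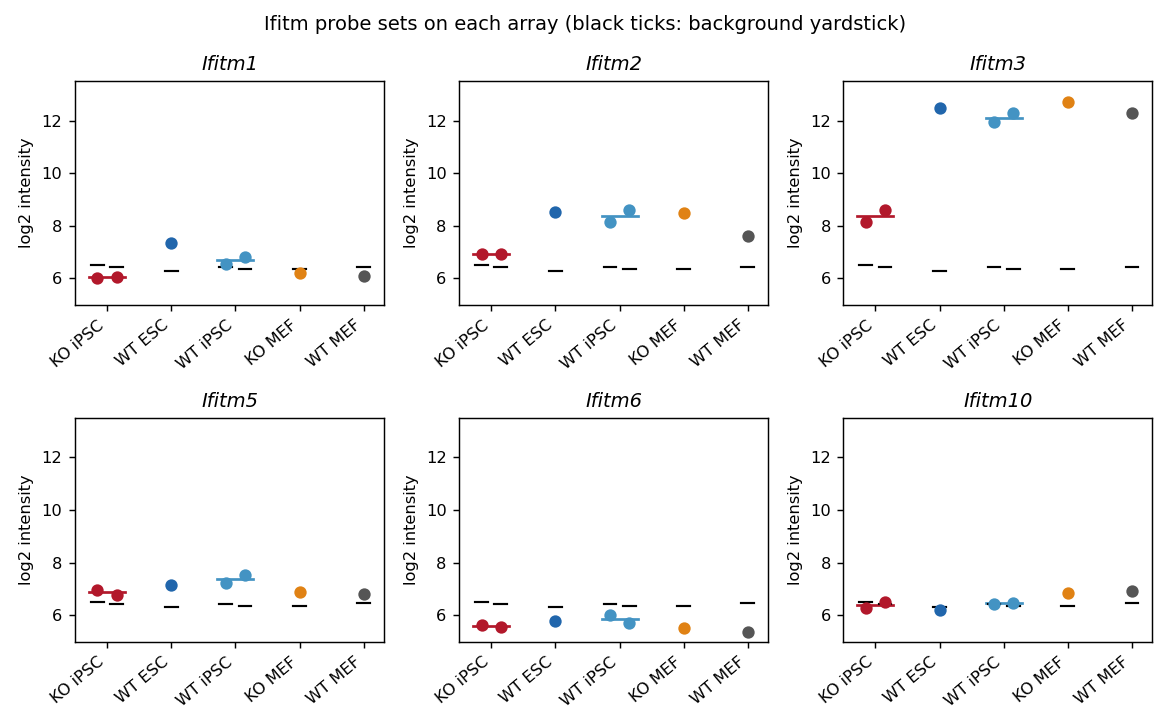
Log2 intensity of the 6 measured Ifitm members (vertical axis, the same range in each panel) by group, KO iPSC, WT ESC, WT iPSC, KO MEF and WT MEF from left to right. Points are arrays, coloured bars are means of groups with 2 arrays, and black ticks mark each array's background. Ifitm3 in KO iPSC, at 8.16 and 8.62, stands apart from its values of 11.94 to 12.70 on the other arrays, and Ifitm6 stays below background on all arrays.

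Fibroblasts express Ifitm3 strongly, so the fibroblast signal on each pluripotent array was read beside it. The median of the 15 fibroblast markers was 7.22 and 7.08 in KO iPSC, against 8.26 in WT ESC and 9.39 and 7.24 in WT iPSC. Of the 15, between 11 and 12 were above background in KO iPSC and between 10 and 14 in WT pluripotent cells. The log2 of the summed intensity was 13.46 on each KO iPSC array, against 13.47 in WT ESC and 14.02 and 13.06 in WT iPSC. Fn1 makes up most of this sum, at 13.19 and 13.18 in KO iPSC, 12.84 in WT ESC and 13.06 and 12.61 in WT iPSC. Single markers went both ways. Col1a1 was lower in KO iPSC, at 7.22 and 7.23, against 9.58 in WT ESC and 10.77 and 8.64 in WT iPSC. WT iPSC replicate 2 had a fibroblast median close to that of KO iPSC, and its Ifitm3 value was 12.27. Single markers still differed between these arrays. Thy1 read 7.61 in WT iPSC replicate 2 and 6.59 and 6.60 in KO iPSC, and Col6a1 read 7.91 against 8.47 and 8.71. The part of fibroblast signal in the Ifitm3 difference was not tested. Without WT iPSC replicate 1, the array with the highest fibroblast level among them, the Ifitm3 difference between KO iPSC and WT iPSC was -3.88. In a bulk sample, fewer cells of a type and less RNA per cell cannot be told apart.

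**Figure D2:**
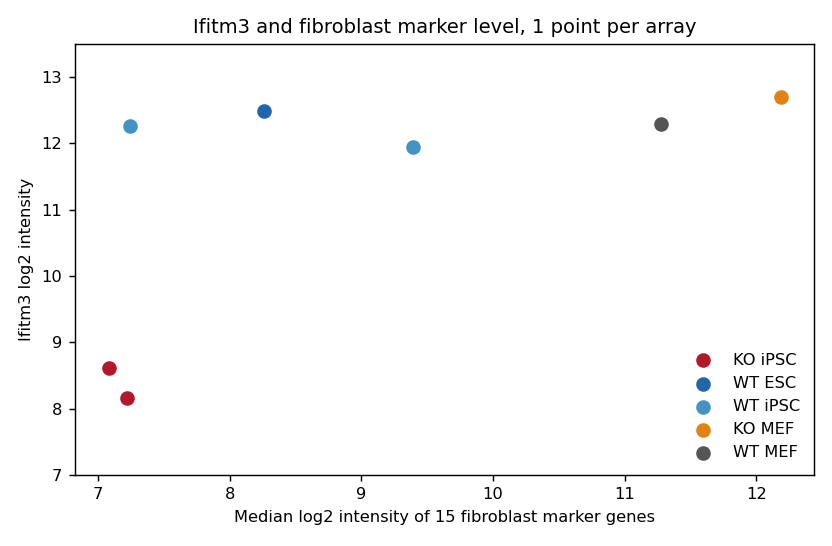
Ifitm3 log2 intensity (vertical axis) against the median log2 intensity of 15 fibroblast markers (horizontal axis), 1 point per array. The 2 KO iPSC points, at 8.16 and 8.62, lie low. WT iPSC replicate 2, with a near equal fibroblast median of 7.24, is at 12.27, though single markers differ between these arrays.

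In fibroblasts, Ifitm3 and Ifitm2 were not lower in KO MEF than in WT MEF. Nanog itself read near background in both, at 6.42 in KO MEF (background 6.35) and 6.53 in WT MEF (background 6.45). The pair thus does not compare cells with high and low Nanog. Ifitm3 read 12.70 in KO MEF and 12.29 in WT MEF, and Ifitm2 read 8.49 in KO MEF and 7.63 in WT MEF. KO MEF was thus 1.33-fold higher for Ifitm3 and 1.82-fold higher for Ifitm2, on 1 array each, so there is no replicate check. No member reached a 2-fold difference, which 4.56% of all genes did. Whether the KO minus WT difference itself differed between iPSC and MEF was not tested for the members, while 8.55% of all genes passed limma's interaction term of genotype with cell type. Ifitm1 was below background in both fibroblast arrays, and the differences of the other 4 members ran from -0.05 to 0.15.

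How the members differ between WT pluripotent cells and WT fibroblasts was tested with limma, a test that shares information on spread across all genes. The single WT MEF array was assumed to vary like the iPSC groups. Ifitm3 averaged 12.11 ± 0.23 (SD, n = 2) in WT iPSC and read 12.29 in WT MEF. The difference of -0.18 (SE 0.24) did not pass the threshold (adjusted p = 0.644). Ifitm2 averaged 8.37 ± 0.31 (SD, n = 2) in WT iPSC and read 7.63 in WT MEF, 1.67-fold higher in WT iPSC (log2 0.74, SE 0.20, adjusted p = 0.0404). Ifitm1 was at least 1.18-fold higher in WT iPSC (fitted log2 0.59, SE 0.15, adjusted p = 0.0335). So 2 of the 6 members passed, beside 32.6% of all genes, 17.2% higher and 15.4% lower in WT iPSC. The calls of Ifitm1 and Ifitm2 are borderline: with each array centred on its median the adjusted p was 0.0607 for Ifitm1 and 0.0625 for Ifitm2, with quantile normalization 0.0583 and 0.0537, and without either KO iPSC replicate 0.0889 and 0.0911. Ifitm5 (0.59, adjusted p = 0.0577), Ifitm6 (0.49, adjusted p = 0.0649) and Ifitm10 (-0.45, adjusted p = 0.0583) missed the threshold.

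Within Nanog KO, Ifitm3 averaged 8.39 in KO iPSC and read 12.70 in KO MEF, 19.9-fold lower, given with no test because its level in KO iPSC chose the family. Ifitm2 averaged 6.93 ± 0.01 (SD, n = 2) in KO iPSC and read 8.49 in KO MEF. Its difference was -1.57 (limma, SE 0.20, adjusted p = 0.00327). These are the KO iPSC arrays whose low Ifitm3 level chose the family. How far the Ifitm2 probe set detects Ifitm3 RNA was not tested, so this p-value is not read as separate support. Ifitm10 was lower by -0.48 (SE 0.13, adjusted p = 0.0435), but its adjusted p was 0.0555 with median centring, 0.205 without KO iPSC replicate 1 and 0.0727 without replicate 2. Ifitm1 (-0.16, adjusted p = 0.473), Ifitm5 (-0.00, adjusted p = 0.995) and Ifitm6 (0.06, adjusted p = 0.808) did not pass. Of all genes, 35.9% passed in this comparison, 18.1% higher and 17.9% lower in KO iPSC.

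The spread of the members among WT pluripotent cells was read from WT ESC against WT iPSC. None of the 6 members passed limma's adjusted threshold, which 36 genes (0.162%) did, 0.0812% higher and 0.0812% lower in WT ESC, and 1 member, Ifitm1, had an unadjusted p under 0.05. Ifitm1 read 7.34 in WT ESC and averaged 6.69 ± 0.19 (SD, n = 2) in WT iPSC (0.65, SE 0.15, adjusted p = 0.203). Without WT iPSC replicate 2 its adjusted p was 0.0121. Ifitm3 differed by 0.38 (SE 0.24, adjusted p = 0.624) and Ifitm2 by 0.14 (SE 0.20, adjusted p = 0.853), against differences of -3.85 and -1.49 between KO iPSC and WT pluripotent cells.

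The cluster on chromosome 7 runs Ifitm5, Ifitm2, Ifitm1, Ifitm3, Ifitm6 among the measured genes, with Ifitm10 further along and Ifitm7 on chromosome 16. Of the 10 measured genes on each side, 20 in all, 4 fell and 1 rose in KO iPSC against WT pluripotent cells, where 15.7% of all genes passed, 6.89% higher and 8.81% lower in KO iPSC. B4galnt4, a glycosyltransferase gene and the next measured gene after Ifitm6, read 7.49 and 7.54 in KO iPSC, against 9.84 in WT ESC and 9.81 and 9.83 in WT iPSC. It fell 4.96-fold (-2.31, SE 0.07, adjusted p = 0.000233). Pgghg, a glucosidase gene immediately before Ifitm5, read 7.58 and 7.36 in KO iPSC, against 8.88 in WT ESC and 8.49 and 8.80 in WT iPSC (-1.25, adjusted p = 0.0053). Ano9, of the anoctamin family, fell by 2.21 on the log2 scale (adjusted p = 0.0259) and Lrrc56 by 0.67 (adjusted p = 0.0262), while the G protein chaperone Ric8a rose by 0.46 (adjusted p = 0.0241). Without KO iPSC replicate 1 only B4galnt4 of these 20 passed, and likewise without replicate 2. Without WT iPSC replicate 2 it was B4galnt4 and Pgghg, and without WT iPSC replicate 1, 7 passed. The median difference of the 20 was -0.11, against 0.03 over all genes.

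**Figure D3:**
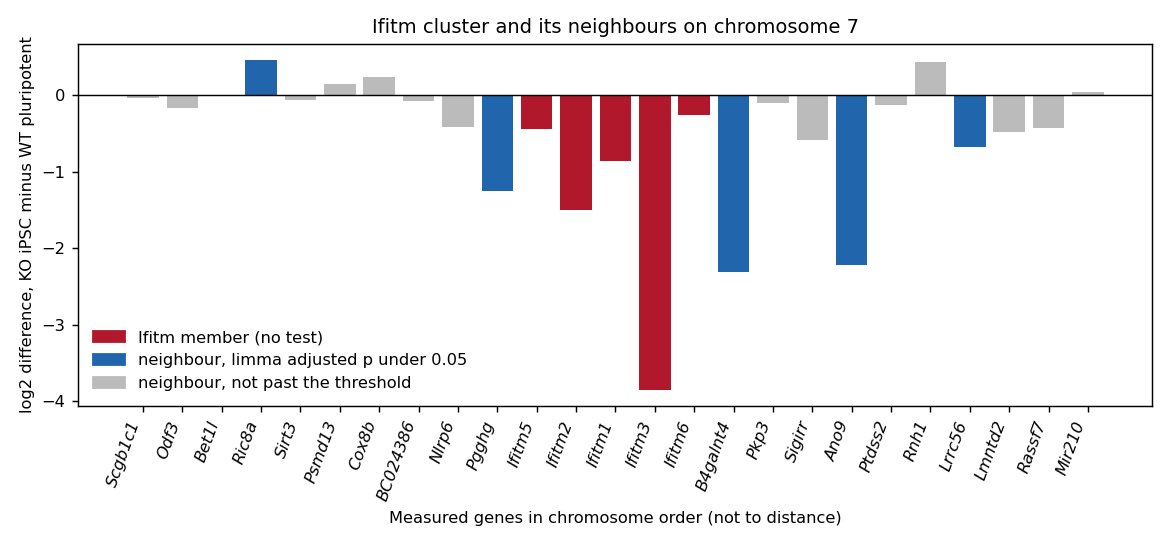
Log2 difference, KO iPSC minus WT pluripotent (vertical axis), for the cluster and 10 measured genes on each side, in chromosome order. Red bars are Ifitm members, shown without a test, blue bars are neighbours past limma's threshold and grey bars are the rest. Ifitm3 at -3.85 is lowest, followed in size by B4galnt4 at -2.31 and Ano9 at -2.21. Of the 20 neighbours, 10 lie within 0.25 of 0 and 10 lie 0.4 or more from 0, on either side.

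Genes of the same pathway were looked at to set the members beside other interferon-related genes in KO iPSC against WT pluripotent cells. Of 46 measured interferon-stimulated genes, 4 fell and 1 rose, beside the 15.7% of all genes that passed in either direction, and the median difference was -0.08. The list thus held no larger share of called genes than all genes did. Ly6e, a membrane-anchored protein that limits entry of some viruses, read 9.57 and 9.80 in KO iPSC, against 11.06 in WT ESC and 11.003 and 11.13 in WT iPSC, and it fell 2.60-fold (-1.38, SE 0.10, adjusted p = 0.00148). Eif2ak2, the RNA-sensing kinase PKR, fell by 0.62 (adjusted p = 0.0197), Parp14, below background in KO iPSC, by a fitted 0.61 (adjusted p = 0.0483), and Cmpk2 by 0.34 (adjusted p = 0.0435), the last outside the naming rule and named after its value was seen. The RNA editor Adar rose by 0.42 (adjusted p = 0.0223). Without KO iPSC replicate 1 or without replicate 2 only Ly6e of this list passed, and 3 passed without WT iPSC replicate 2 and with median centring.

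Of 21 interferon receptor and signalling genes, 3 fell and 1 rose, near the 15.7% of all genes that passed, with a median of -0.05. Ifnar2, a subunit of the type I interferon receptor, fell by 1.28 (SE 0.11, adjusted p = 0.00222), and was the only one to pass without either KO iPSC replicate in turn. The transcription factors Irf1 (-1.01, adjusted p = 0.027) and Irf3 (-0.47, adjusted p = 0.0467) fell and the kinase Jak2 rose (0.57, adjusted p = 0.00884). Without WT iPSC replicate 2 only Ifnar2 and Jak2 passed.

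Among 12 other antiviral restriction factors, a list that shares Ly6e with the one above, 4 fell and none rose, beside 8.81% of all genes that fell and 6.89% that rose, with a median of -0.30. Apobec3, a cytidine deaminase that restricts retroviruses, fell 3.71-fold (-1.89, SE 0.10, adjusted p = 0.000599). Samhd1 (-0.72, adjusted p = 0.0117), which depletes nucleotides, and Serinc5 (-0.70, adjusted p = 0.0299), which lowers virion infectivity, fell as well. Without KO iPSC replicate 1, or without replicate 2, Apobec3 and Ly6e alone passed.

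Of 12 early germ cell genes, with which Ifitm3 is studied in mouse embryos, 4 fell and 1 rose, beside the 15.7% of all genes that passed, with a median of -0.69. The receptor Kit fell 5.74-fold (-2.52, adjusted p = 0.00203). The regulators Prdm14 (-1.75, adjusted p = 0.0115) and Tfap2c (-1.53, adjusted p = 0.00146) and the RNA-binding Dazl (-1.62, adjusted p = 0.0365) also fell. Nanos2, named outside the rule after its value was seen, rose by 0.45 (adjusted p = 0.022) at values below background on every array. Without KO iPSC replicate 1, or without replicate 2, Kit and Tfap2c alone passed, and without WT ESC 7 passed.

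Of the 7 other genes with the CD225 domain that defines the family, 0 passed limma's adjusted threshold, beside 15.7% of all genes. Of the 7, 1 had an unadjusted p under 0.05. Without WT iPSC replicate 1, Prrt2 passed. Of 8 known partners and modifiers of IFITM proteins, 1 passed, near the 15.7% of all genes that did. It was Atp6v0b, a subunit of the proton pump of endosomes. Atp6v0b read 11.69 and 11.67 in KO iPSC, against 10.36 in WT ESC and 10.21 and 10.31 in WT iPSC. It rose 2.61-fold (1.39, limma, SE 0.08, adjusted p = 0.000974). The tetraspanins, the palmitoyl transferase Zdhhc20 and the other measured partners did not pass.

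**Figure D4:**
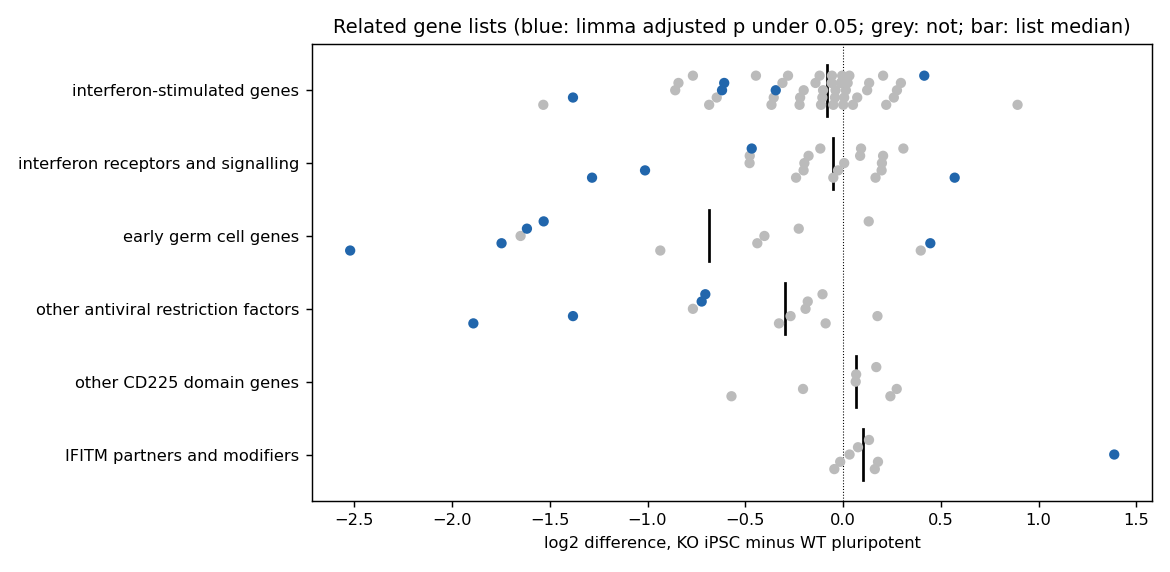
Log2 difference, KO iPSC minus WT pluripotent (horizontal axis), of each measured gene in the 6 related lists, with a black bar at the list median. Blue points passed limma's adjusted threshold and grey points did not. The medians lie between -0.69 and 0.10.

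In fibroblasts, interferon-stimulated genes were often higher in KO MEF. Of 46, 12 were at least 2-fold higher in KO MEF than in WT MEF and 1 lower, beside 2.8% and 1.77% of all genes, with no test since each group has 1 array. With values below background set to background, an alternative chosen after seeing the data, 10 were at least 2-fold higher and 1 lower, beside 2.54% and 1.64% of all genes. Xaf1 (2.48) and Lgals3bp (1.60) were among the higher ones, Irgm2, below background in WT MEF, was at least 2.43-fold higher, and Irgm1 (-2.06) was the lower one. The median was 0.39, against -0.02 over all genes. The fibroblast marker median was also higher in KO MEF (12.19) than in WT MEF (11.28), and its part in this was not tested. Ifitm3 (0.41) and Ifitm2 (0.86) lay in the same direction at under 2-fold. Between KO iPSC and KO MEF, 23 of the 46 fell in KO iPSC and 3 rose, with a median of -0.72, and 12 of 21 signalling genes fell and 3 rose (9 in all without KO iPSC replicate 1), where 17.9% of all genes fell and 18.1% rose. Between WT iPSC and WT MEF, 6 of the 46 fell in WT iPSC and 3 rose, where 32.6% of all genes passed, and without WT iPSC replicate 1, 18 of the 46 passed. Between WT ESC and WT iPSC, Oasl2 (at least 5.76-fold), Igtp (at least 1.49-fold) and Irgm2 (at least 2.15-fold) rose in WT ESC and Xaf1 fell by 1.93, whereas no Ifitm member passed. Without either KO iPSC replicate in turn, 0 of the 46 passed, and without WT iPSC replicate 1 and replicate 2 in turn 8 and 18 did.

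Genes with the profile most like that of Ifitm3 were sought among 2498 genes whose log2 range over the 7 arrays was at least 2, by Pearson correlation over the 7 arrays. They share the arrays and the low KO iPSC values, so the correlations are a description. The 8 closest were Uqcc2 (0.999), Dapp1 (0.994), Itpr3 (0.986), Fads2 (0.986), Lamtor3-ps (0.985), Armcx2 (0.975), Trim44 (0.975) and Rlim (0.972). Uqcc2, an assembly factor of a respiratory chain complex, read 7.70 and 7.89 in KO iPSC, against 10.54 in WT ESC and 10.07 and 10.29 in WT iPSC, and 10.71 in KO MEF and 10.43 in WT MEF. Itpr3, a calcium channel of the endoplasmic reticulum, lies next to Uqcc2 among the measured genes of chromosome 17, and Armcx2 and Rlim, an E3 ubiquitin ligase, are on the X chromosome. Among the family, Ifitm2 had the highest correlation with Ifitm3 (0.909), and the other 4 measured members lay between 0.159 and 0.551. No other member had a range of 2.

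**Figure D5:**
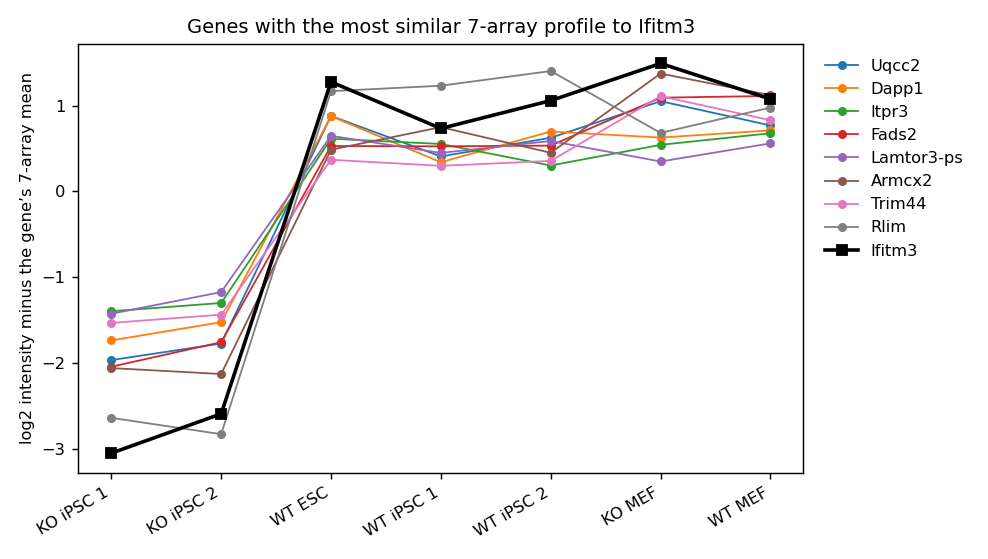
Log2 intensity minus each gene's mean over the 7 arrays (vertical axis) for Ifitm3 (black squares) and the 8 genes with the highest correlation with it, by array (horizontal axis). All 9 are low on both KO iPSC arrays and high on the other 5.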

How the data were processed

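Transcripts of 7 samples were measured on 1 array each. The authors deposited intensity values of 33649 probe sets, which the submitters' processing notes credit to RMA in Affymetrix Expression Console 1.3.0.187. They were on a linear scale, from 9.67 to 13043, and not the log2 scale assumed in the plan, so log2 was taken here. Scanner files were not used, and the genome build is not given in the sources used here. Of the probe sets, 23521 had 1 gene symbol in the platform annotation, 1814 had several and 8314 were not named, and only the first were used. For a gene with several probe sets (1082 genes) the one with the highest mean stood for it.

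Differences were fitted with limma 3.58.1 in R 4.3.3 (lmFit, eBayes), two-sided, with Benjamini-Hochberg adjustment over 22180 genes and a threshold of 0.05. KO iPSC against WT pluripotent cells used 5 arrays (3 residual degrees of freedom). Other comparisons used all 7 with a coefficient for each group, leaving 2 residual degrees of freedom, so a group of 1 array takes its spread from the iPSC groups. The p-values measure only the spread between these samples. Where all arrays on the dim side lay below background, the fold is a lower bound against the mean background of those arrays. Comparisons share arrays. Arrays have no read depth, and precision is limited by their number.

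The members and lists were chosen with earlier results of these data known. Named were all members, up to 4 called genes of a list with the largest difference, called neighbours and the 8 genes most like Ifitm3. Alternatives were median centring, quantile normalization, the mean of probe sets, a filter on dim genes, setting values below background to it in MEF, trend and robust eBayes, leaving out each replicate and a replicate block. The fit was tested on simulated data.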

Additional observations from a re-analysis of the deposited data

Results flagged for a closer look

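In 5 members both KO iPSC arrays were below both WT iPSC arrays while KO MEF was above WT MEF, a pattern that 12.4% of all genes show. The count includes Ifitm3, whose difference in iPSC chose the family, and is a description. The KO minus WT difference in iPSC, less that in MEF, was -4.13 for Ifitm3, -2.31 for Ifitm2, -0.75 for Ifitm1, -0.59 for Ifitm5 and -0.43 for Ifitm6, on the log2 scale. This difference between cell types was not tested for the members, and Nanog read near background in both MEF groups. Ifitm6 was below background on every array, and Ifitm1 was below it in KO iPSC and both MEF groups.

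Of 53 genes named from the lists and the neighbours, 18 had a KO minus WT difference in iPSC that differed from that in MEF by limma's interaction term (adjusted p between 0.00422 and 0.0449, 1 array per genotype in MEF), as did 8.55% of all genes. The 53 were named for differences called in comparisons that share these arrays, so their count is not read against that share. The KO minus WT difference in iPSC, less that in MEF, was -2.26 for Apobec3, -2.51 for B4galnt4, -1.97 for Dazl, -1.52 for Ddx4, -1.23 for Eif2ak2, -1.47 for Ifnar2, -0.87 for Igtp, -1.45 for Irf1 and -2.21 for Irgm2. It was -2.97 for Kit, -1.36 for Ly6e, -2.08 for Oasl2, -1.72 for Pgghg, -1.70 for Tfap2c, -1.11 for Trim25 and -2.24 for Xaf1. It was above 0 for Atp6v0b (0.86) and Irgm1 (1.80). These are fitted values, and some rest on levels below background. Igtp, Irgm2 and Oasl2 were below it in KO iPSC, WT iPSC and WT MEF. Ddx4 was below it in KO iPSC and both MEF groups, Irgm1 in KO iPSC and WT iPSC, and Dazl and Tfap2c in both MEF groups.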

How the results depend on the processing

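For Ifitm3, the difference between KO iPSC and WT pluripotent cells ran from -4.08 to -3.62 when replicates were left out in turn and was -3.80 with median centring and -3.76 with quantile normalization. Of 150 tested values of members under alternatives, 128 kept their direction and side of the threshold. Of 151 values with no test, 146 kept their sign, and the 5 that did not were of Ifitm10 in KO iPSC against WT pluripotent cells or WT iPSC, where its difference was near 0. Both counts include alternatives that leave a member's difference the same by construction, so they overstate stability. Examples are the mean of probe sets, with 1 probe set per member, and trend and robust eBayes. Between WT ESC and WT iPSC, leaving out replicates gave -0.076 to 0.36 for Ifitm2 and -0.22 to 0.063 for Ifitm6, so both changed sign. Between KO iPSC and KO MEF, Ifitm5 was 0.013 with median centring and -0.098 to 0.094 with replicates left out, and Ifitm6 was -0.041 with quantile normalization. Genes called ranged with replicates left out from 341 to 4167 for KO iPSC against WT pluripotent cells, 519 to 5979 for KO iPSC against WT iPSC, 1 to 2289 for WT ESC against WT iPSC, 4777 to 10404 for KO iPSC against KO MEF and 5078 to 9112 for WT iPSC against WT MEF. For WT ESC against WT iPSC 95 were called with trend and robust eBayes and 22 with the filter on dim genes. For KO iPSC against WT pluripotent cells, 1529 genes were higher and 1954 lower, and with median centring 1910 were higher and 1620 lower. The cause of these shifts was not tested. The labels do not say whether iPSC replicates with the same number are paired. The correlation of same-numbered deviations was 0.02 across 22180 genes. It sets 1 WT difference against 1 KO difference, so it cannot decide this. With replicate number as a block on the 4 iPSC arrays, 3279 genes were called, against 3656 without. The block is balanced over the genotypes, so the Ifitm3 difference is -3.72 in both fits by construction, which is no check of it. Signals near background limit Ifitm1, Ifitm6 and Ifitm10.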
